A study of Mus musculus with 4 samples.

Results

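Glycolysis splits glucose into pyruvate in the cytosol, and lactate dehydrogenase converts pyruvate and lactate into each other. In the hippocampus, astrocytes are held to run much of this pathway and to pass lactate to neurons, and long-term memory after inhibitory avoidance training in rodents has been reported to depend on that transfer. Several of the enzymes are abundant in every brain cell, so Gapdh and Pgk1 are often used as reference genes against which other transcripts are scaled. The values below are those of the spots annotated to 10 genes of the pathway (Hk1, Gpi1, Aldoa, Tpi1, Gapdh, Pgk1, Eno1, Eno2, Ldha and Ldhb), chosen by name from the platform's annotation. It held 7 of these genes on 31 of 16281 spots: Gapdh had 25 spots, and Hk1, Aldoa, Pgk1, Eno2, Ldha and Ldhb had 1 each. Eno1, Tpi1 and Gpi1 had 0 annotated spots and were not analysed here.

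The study compared MK C+S with MK in CA1, a field of hippocampal pyramidal neurons, in young male C57BL/6J mice. MK C+S mice were given MK-801, which blocks NMDA-type glutamate receptors, 1 h before contextual fear conditioning. They then explored a new chamber for 2 min before a 1 s, 0.5 mA foot shock, a cycle run 3 times, and went back to the homecage 1 min after the last shock. MK mice received the same drug without the conditioning, so no group here was free of MK-801. As labelled, both groups received 300 micrograms of drug per g of body weight, a dose far above those commonly used in mice. RNA was taken 1, 2, 4 or 6 h after the last shock and hybridised to 1 array with 2 dyes for each time, with MK C+S in Cy5 (red) and MK in Cy3 (green) on every array. Dyes were never swapped, so a dye effect and the conditioning cannot be told apart. The number of mice behind each array, and whether they were pooled, is not stated in the labels.

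Each value is a log ratio, read as log10, with MK C+S likely on top of MK because that sample is in the red channel; neither base nor direction is stated in the deposited table. The sample titles name MK before MK C+S, and if the ratio ran that way every sign below would turn and every fold would be its inverse (for example 1.65 in place of 0.607 for Ldhb at 4 h). A spot listed at exactly 0 was treated as not measured, and the median of the measured spots was subtracted from each array. Between 12586 spots (at 1 h) and 15078 spots (at 4 h) had a ratio. Spread between spots of the same gene within an array can be read only from genes with several spots. Leaving out Gapdh, their pooled SD was 0.226 (1 h), 0.203 (2 h), 0.169 (4 h) and 0.330 (6 h). Spots were pooled by gene name, whatever transcript entry they carry, so this SD may hold more than technical error. The repeated spots of 1 Gapdh transcript entry, left out of it, had SDs of 0.151, 0.301, 0.129 and 0.156 at those times. Ratios carry no level, so neither the abundance of the enzymes nor the identity of the tissue could be checked, and Camk2a, Hpca and Wfs1 were the CA1 markers with a ratio on all 4 arrays. In bulk tissue fewer cells of a type and less RNA per cell cannot be told apart.

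Promoter sequences are shown for the member pair that lay above 0 together at 2 and 6 h, Gapdh and Aldoa, and for Eno2 and Ldha, which lay below 0 on all 4 arrays. They are the 250 bases before the annotated start in RefSeq (build GRCm38.p6), 5' to 3' on the strand of the gene. Capitals mark the hypoxia response cores ACGTG and GCGTG on either strand, which read CACGT and CACGC on the other one. Where a gene had several starts, the window with most matches is printed (for Aldoa, the upstream one of 2 windows that overlap and hold the same match). Gapdh lies at chr6:125165774-125166023 on the minus strand, Aldoa at chr7:126799255-126799504 on the minus strand, Eno2 at chr6:124769674-124769923 on the minus strand and Ldha at chr7:46845554-46845803 on the plus strand.
Gapdh: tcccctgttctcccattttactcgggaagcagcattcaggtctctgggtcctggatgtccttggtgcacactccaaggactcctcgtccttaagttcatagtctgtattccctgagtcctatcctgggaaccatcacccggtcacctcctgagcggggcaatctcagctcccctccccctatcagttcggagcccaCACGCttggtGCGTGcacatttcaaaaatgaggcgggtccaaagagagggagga
Aldoa: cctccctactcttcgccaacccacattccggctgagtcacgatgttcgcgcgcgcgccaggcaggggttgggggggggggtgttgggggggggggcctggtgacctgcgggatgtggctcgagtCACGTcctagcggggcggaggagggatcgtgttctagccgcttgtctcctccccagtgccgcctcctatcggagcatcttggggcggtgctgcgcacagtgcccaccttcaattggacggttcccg
Eno2: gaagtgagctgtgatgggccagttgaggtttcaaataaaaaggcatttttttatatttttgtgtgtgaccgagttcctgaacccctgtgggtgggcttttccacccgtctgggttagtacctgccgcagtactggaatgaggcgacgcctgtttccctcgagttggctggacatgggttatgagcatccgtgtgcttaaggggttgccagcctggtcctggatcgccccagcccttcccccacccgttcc
Ldha: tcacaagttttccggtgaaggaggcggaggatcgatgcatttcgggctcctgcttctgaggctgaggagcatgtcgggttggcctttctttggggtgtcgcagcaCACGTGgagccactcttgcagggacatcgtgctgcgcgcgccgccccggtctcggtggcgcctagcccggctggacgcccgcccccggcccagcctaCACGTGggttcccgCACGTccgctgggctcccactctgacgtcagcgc

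The Gapdh window held 2 GCGTG matches, whose first bases lie 54 and 44 bases before the start, and no ACGTG. The Aldoa window held 1 ACGTG match at 126 bases, and the Eno2 window held 0 of either core. The Ldha window held 5 ACGTG matches, of which 4 make up 2 copies of the palindrome CACGTG (an E-box, whose strands each hold an ACGTG), at 145 and 48 bases, and the remaining one lies at 34 bases. Among the windows not printed, Pgk1 had 2 ACGTG matches, 1 of 2 Hk1 windows had 3 GCGTG matches and Ldhb had 1 GCGTG match. The other Ldha window had 0 ACGTG matches and 1 GCGTG match, and the Aldoa window apart from the overlapping ones had 0 of either. For comparison, ACGTG occurred in 16.6% of 32851 promoter windows of this length, GCGTG in 28.2%, CACGTG in 6.02% and either core in 38.6%. These shares are over all windows, whereas the Aldoa and Ldha windows printed were picked for most matches. A match describes these letters only, and none of the arrays measured binding.

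The glycolytic genes ran between 0.607-fold (Ldhb at 4 h) and a log10 ratio of 0.199 (Gapdh at 6 h). None of the 6 genes measured at 1 h or the 7 measured at 2, 4 and 6 h was past 2-fold (0.301 on the log10 scale), where the share of all genes past it was 8.47% (1 h), 6.58% (2 h), 7.07% (4 h) and 21.9% (6 h). The medians over the member genes in time order were -0.029, -0.019, -0.0023 and -0.0070, beside 0.0013, -0.00074, -0.00095 and -0.0062 over all genes. Members lay on both sides of 0 at each time: 2 of 6 were above it at 1 h, then 3 of 7, 2 of 7 and 3 of 7 at the later times, where 50.4%, 49.7%, 49.8% and 48.6% of all genes were. The plot of the 7 genes over time shows no shared course.

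**Figure D1:**
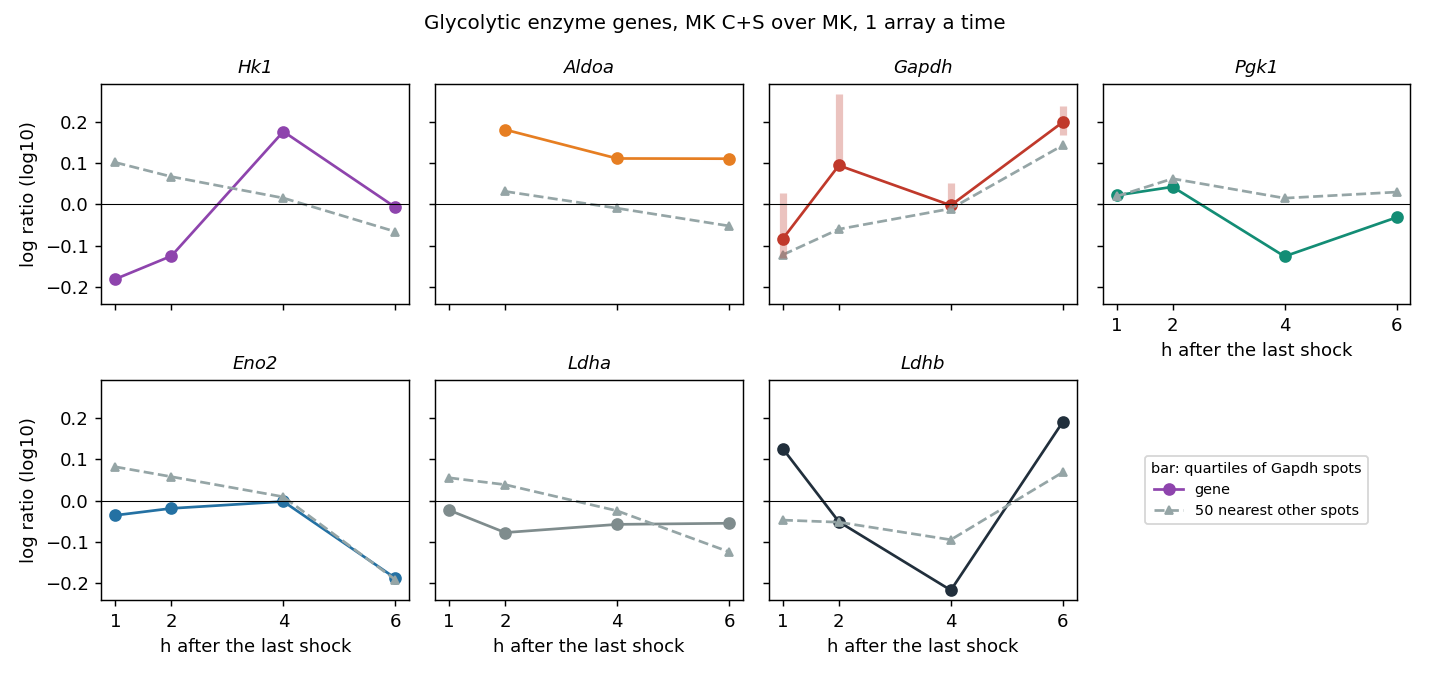
Log10 ratio of each glycolytic gene, MK C+S over MK, against hours after the last shock (1 array a time). Circles are the gene, grey triangles the median of the 50 measured spots nearest in spot number, and the bars of Gapdh span the quartiles of its spots. Gapdh (as the mean of its spots) and Ldhb are highest at 6 h, Hk1 at 4 h, and Ldha hardly moves. The median of the Gapdh spots is highest at 2 h (0.224, beside 0.198 at 6 h).

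Hexokinase 1 phosphorylates glucose and so commits it to the cell. Hk1 had log10 ratios of -0.180 (1 h), -0.125 (2 h), 0.176 (4 h) and -0.0070 (6 h). Its ratio thus lay below 0 at both early times and above 0 at 4 h, and if the base is 10 it was 0.660-fold at 1 h and 1.5-fold at 4 h. Of the genes with 1 spot, Hk1 and Ldhb at 4 h were the only values larger than the pooled SD of their array. Set against the SD of the repeated Gapdh spots, Hk1 at 1 h and Eno2 and Ldhb at 6 h were larger too. The spots around Hk1 had medians of 0.101, 0.067, 0.015 and -0.066, on the opposite side of 0 at 1 and 2 h. The mean over the 4 times was -0.034 (SE 0.071, n = 4 arrays; limma adjusted p = 0.862) and the slope was 0.046 per h (adjusted p = 0.626), so neither differed from 0 beyond the spread between times.

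Aldolase A cleaves fructose bisphosphate into the triose phosphates. Aldoa had no ratio at 1 h and log10 ratios of 0.181 at 2 h, 0.111 at 4 h and 0.110 at 6 h. All 3 measured values lay above 0, between 1.29-fold and 1.52-fold, and spread by an SD of 0.040. The spots around Aldoa had medians of 0.031, -0.0093 and -0.052 at those times, so the gene lay higher than its surroundings on each, by 0.149 at 2 h, 0.120 at 4 h and 0.163 at 6 h. Fitted among genes with at least 3 arrays, its mean was 0.134 (SE 0.063, n = 3 arrays), with a limma p of 0.0827 and an adjusted p of 0.490, which did not pass. Aldolase C, the paralogue that marks astrocytes in brain, had ratios of 0.122, 0.288, 0.0111 and 0.179 at 1, 2, 4 and 6 h, all from the 1 of its 2 spots that gave a ratio. Its mean of 0.150 (SE 0.061, n = 4 arrays) had an unadjusted limma p of 0.0461 and an adjusted p of 0.434.

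Glyceraldehyde-3-phosphate dehydrogenase makes the first NADH of the pathway and was printed more often than any other member. The annotation gives 24 of its 25 spots one transcript entry, set in 2 runs of 12 between spot numbers 1118 and 1305 and between 2678 and 2865, and the remaining spot another entry. At 1 h 14 Gapdh spots had a ratio, with a lowest value of -0.514, a median of -0.081 and a highest of 0.073. At 2 h the 24 spots with a ratio ran between -0.597 and 0.419 with a median of 0.224, which is 1.68-fold. At 4 h all 25 spots gave a ratio, between -0.355 and 0.242 with a median of 0.025. At 6 h 24 spots ran between -0.145 and 0.701 with a median of 0.198. Spots above 0 numbered 6 of 14 (1 h), 18 of 24 (2 h), 16 of 25 (4 h) and 22 of 24 (6 h), where 50% of all spots lay above 0 on every array. Counted by size, 1 of 14 spots at 1 h was past 2-fold, downward, where 9.45% of all spots were past it (5.32% up, 4.14% down). At 2 h 3 spots were past it upward and 4 downward, where 7.94% of all spots were (2.91% up, 5.03% down). At 4 h 1 spot was past it, downward, where 7.97% were (2.94% up, 5.03% down), and at 6 h 2 spots upward, where 25.4% were (12.7% up, 12.8% down). These spots share a target and an RNA pair, so they are repeated measurements of 1 gene and do not replicate the conditioning.

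**Figure D2:**
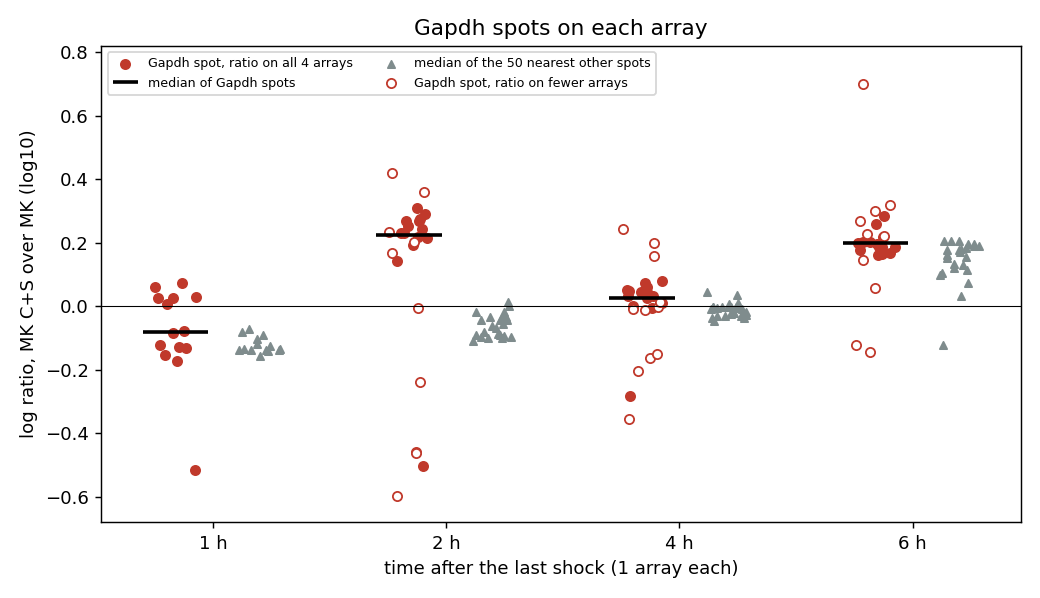
Log10 ratio of every measured Gapdh spot on each array (MK C+S over MK), with grey triangles for the median of the 50 other spots nearest to each. Filled circles are spots with a ratio on all 4 arrays, open circles the others, and black lines the medians of -0.081, 0.224, 0.025 and 0.198 at 1, 2, 4 and 6 h; at 2 h most Gapdh spots stand above their surroundings, and at 6 h both lie above 0.

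The ratio of Gapdh was higher at 2 h than at 1 h, lower at 4 h and higher again at 6 h within most of the same spots. All 14 spots measured at both 1 and 2 h were higher at 2 h, with a median difference of 0.264. Of 24 spots, 18 were lower at 4 h than at 2 h, by a median of 0.195, and 22 of 24 were higher at 6 h than at 4 h, by a median of 0.156. Between 2 and 6 h no order appeared, with 11 of 23 spots higher at 6 h. As each time is a different array and a different RNA pair, these differences are those of single arrays.

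The medians of other spots with nearby numbers were not the same on each array. The 50 nearest other spots had medians below 0 around all 14 Gapdh spots at 1 h, around 23 of 24 at 2 h and around 21 of 25 at 4 h, and above 0 around 23 of 24 at 6 h. Within a run the Gapdh spots lie close in number and share many of these neighbours, so the counts are not of independent surroundings. Over the Gapdh spots these surroundings had medians of -0.135 (1 h), -0.059 (2 h), -0.0074 (4 h) and 0.166 (6 h). After the surroundings were subtracted, the Gapdh medians were 0.040 (1 h), 0.292 (2 h), 0.037 (4 h) and 0.032 (6 h). The 2 h value was then higher than that at 1 h in 13 of 14 spots (median difference 0.202), and the 6 h value higher than that at 4 h in 12 of 24 (median difference 0.0026). The 2 h ratio of Gapdh was thus no smaller with its surroundings subtracted, whereas the 6 h median was 0.032 in place of 0.198. How spot numbers map to places on the slide is not stated, and the part of the surroundings in the Gapdh ratio was not tested.

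**Figure D3:**
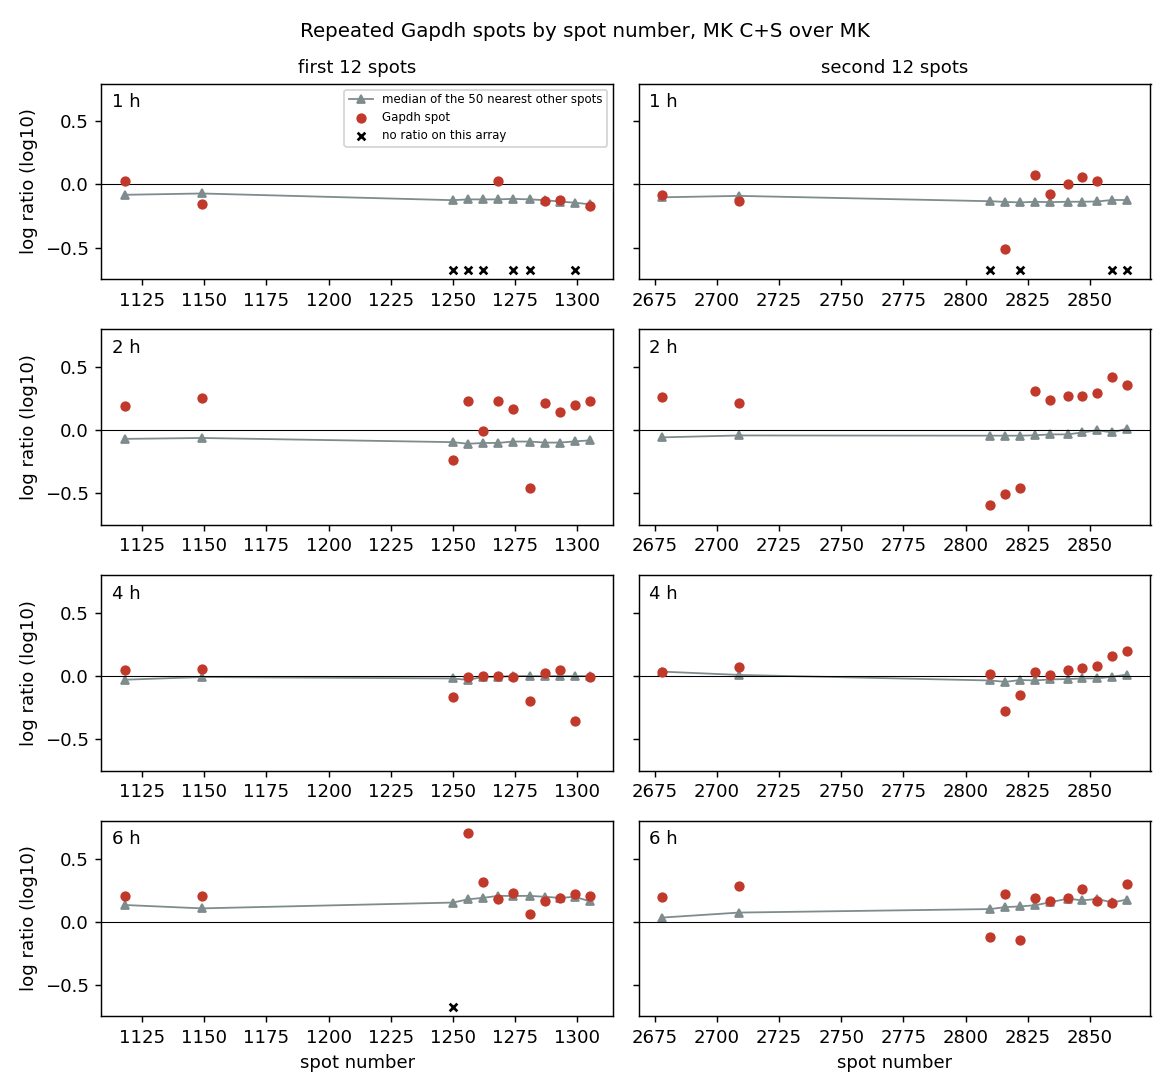
Log10 ratio (MK C+S over MK) of the 24 repeated Gapdh spots against spot number, for the first and the second run of 12 (columns) at 1, 2, 4 and 6 h (rows); crosses on the floor of a panel are spots with no ratio. The grey line, the median of the 50 nearest other spots, lies below most Gapdh spots at 2 h and among them at 6 h.

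Of the 6 Gapdh spots below 0 at 2 h, 3 followed each other in the numbering. Spots 2810, 2816 and 2822 had -0.597, -0.503 and -0.461, spots 1250 and 1281 had -0.238 and -0.459, and spot 1262 had -0.0063. Of these 6, only spot 2816 had a ratio on all 4 arrays, and it was also the lowest at 1 h, with -0.514. The 14 spots with a ratio on all 4 arrays are all those measured at 1 h, and at 2, 4 and 6 h they were tighter than the full set. At 2 h 13 of 14 lay above 0, and their means were -0.083 (1 h), 0.188 (2 h), 0.016 (4 h) and 0.199 (6 h). The 2 runs had medians of 0.198 and 0.268 at 2 h. Of the pairs at the same place in both runs, 10 of 12 had the same sign at 2 h, with a largest difference of 0.738. At the other times it was 2 of 5 pairs (1 h), 7 of 12 (4 h) and 10 of 11 (6 h). The spot of the other transcript entry had no ratio at 1 or 2 h, 0.242 at 4 h and 0.270 at 6 h. Mouse Gapdh has many processed pseudogenes and a testis paralogue, Gapdhs, and probe sequences were not used here, so shared hybridisation is uncertain. Gapdhs had ratios of -0.144, 0.028, 0.041 and 0.210 at 1, 2, 4 and 6 h.

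As a gene, Gapdh had mean log10 ratios of -0.083 (1 h), 0.094 (2 h), -0.0023 (4 h) and 0.199 (6 h). Its mean over the times was 0.052 (SE 0.063, n = 4 arrays; limma adjusted p = 0.754) and its slope 0.042 per h (adjusted p = 0.612). Against all 8553 genes with a value on every array, its SD over the times, 0.122, stood at the 48.4th percentile (median gene, SD 0.125). The Gapdh value averages between 14 and 25 spots an array and that of most genes rests on 1 spot. The 2 SDs are therefore not like for like, and the spots averaged for Gapdh changed between arrays.

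Phosphoglycerate kinase 1 makes the first ATP of the pathway. Pgk1 had log10 ratios of 0.022 (1 h), 0.042 (2 h), -0.126 (4 h) and -0.032 (6 h). It was close to 0 but for the 4 h array, where it was 0.749-fold and its surroundings lay at 0.015. The mean was -0.023 (SE 0.053, n = 4 arrays; limma adjusted p = 0.875) and the slope -0.019 per h (adjusted p = 0.831).

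Enolase 2, known as neuron-specific enolase, makes phosphoenolpyruvate in neurons. Eno2 had log10 ratios of -0.036 (1 h), -0.019 (2 h), -0.0022 (4 h) and -0.188 (6 h). All 4 values lay below 0, and the one at 6 h stood apart, at 0.649-fold. The surroundings of the spot had medians of 0.082, 0.058, 0.0092 and -0.191, so at 6 h the spot and its surroundings lay equally low and their difference was 0.0036. The mean of Eno2 was -0.061 (SE 0.055, n = 4 arrays; limma adjusted p = 0.673) and the slope -0.028 per h (adjusted p = 0.747). Among 9 annotated neuron markers, Snap25 had 0.400, Syt1 -0.287, Map2 -0.193 and Stmn2 -0.137 at 6 h. Of the 9, 3 lay above 0 at 6 h, where 48.6% of all genes did.

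Lactate dehydrogenase is a tetramer of the subunits encoded by Ldha and Ldhb; the first prevails in astrocytes and the second in neurons. Ldha had log10 ratios of -0.023 (1 h), -0.077 (2 h), -0.058 (4 h) and -0.055 (6 h). All 4 lay slightly below 0, between 0.837-fold and 0.948-fold, within 0.054 of each other. Its SD over the times was 0.022, from 1 spot. As this is smaller than the pooled SD between spots of the same gene on any array (0.169 to 0.330), it cannot be read as a steady transcript. It was at the 0.690th percentile of all genes, the lowest among the members measured on every array. Eno2 and Ldha were the 2 of 6 such members with the same sign at all times, where 21.8% of all genes had one. After subtraction of the surroundings Ldha had -0.078, -0.116, -0.033 and 0.069, and the sign at 6 h turned. The mean of -0.053 (SE 0.048, n = 4 arrays) did not differ from 0 (limma adjusted p = 0.670), nor did the slope of -0.0030 per h (adjusted p = 0.986).

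Ldhb had log10 ratios of 0.125 (1 h), -0.051 (2 h), -0.217 (4 h) and 0.190 (6 h). It was high on the first and last arrays and lowest at 4 h, where it was 0.607-fold. With a range of 0.407 and an SD of 0.183 it varied more between times than any other member with a ratio on all 4 arrays. Its surroundings had -0.047, -0.052, -0.095 and 0.068. The mean was 0.012 (SE 0.078, n = 4 arrays; limma adjusted p = 0.961) and the slope 0.0097 per h (adjusted p = 0.958). The single Ldha and Ldhb spots differed in sign at 1 and 6 h, and with 1 array a time this difference was not tested.

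**Figure D4:**
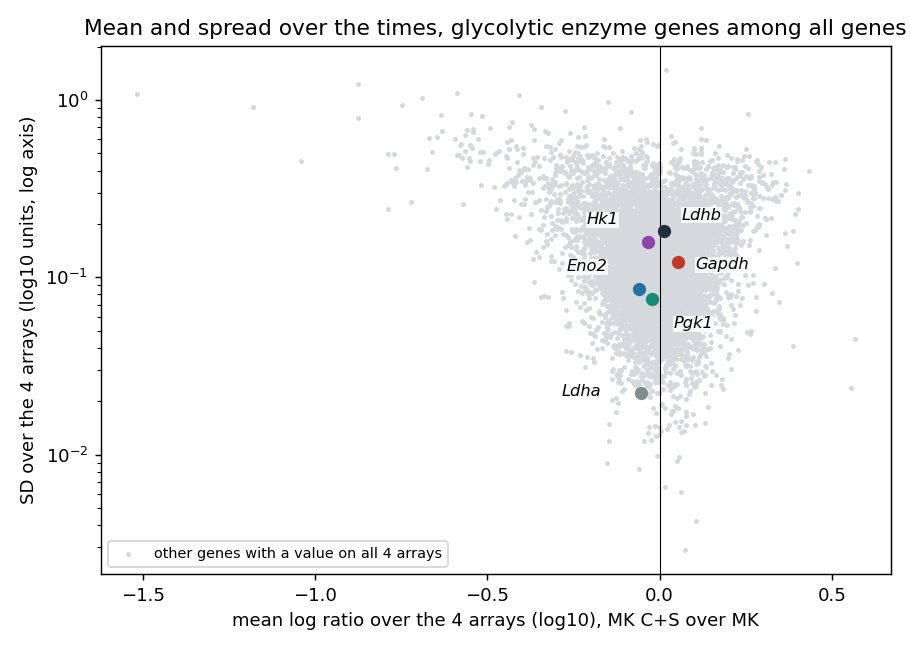
Mean log10 ratio over the 4 arrays (MK C+S over MK) against the SD over the arrays (log axis) for the 6 glycolytic genes with a ratio on every array, in colour, and the other genes with one, in grey. The 6 means lie between -0.061 and 0.052, inside the cloud of genes, and Ldha has the smallest SD of the 6 at 0.022.

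In the fit of all 8553 genes, 0 passed an adjusted p of 0.05 in the mean over the times (0%), with 973 (11.4%) at an unadjusted p below 0.05, and 0 passed in the slope, with 1250 (14.6%) unadjusted. None of the members was among those at an unadjusted p below 0.05. The lowest adjusted p of any gene was 0.0609 for the mean and 0.106 for the slope. Genes whose values lay nearest to Gapdh over the 4 arrays, by root mean square difference among 8552 other genes, were Zbtb32 (0.011), Slc4a3 (0.017) and Ghrl (0.018). Nearest to Eno2 were Agk (0.018), Slc25a20 (0.020) and Bex3 (0.024), and nearest to Aldoa over its 3 arrays were 1700123O20Rik (0.0069), Slc4a10 (0.0095) and Map3k8 (0.012).

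The remaining enzymes of glycolysis gave as little of a common direction. Of 28 listed, 16 were annotated and 14 were tested, of which 0 passed in either direction. The median of their means over the times was 0.023, beside -0.0095 over all genes, and 1 lay above 0 and 2 below at an unadjusted p below 0.05, where 4.26% of all genes lay above and 7.12% below at that level. The one above was Aldoc, given with Aldoa. Those below were Pfkp, the platelet type of phosphofructokinase that brain also makes, with ratios of -0.129, -0.093, -0.080 and -0.242 at 1, 2, 4 and 6 h (mean adjusted p = 0.434), and the muscle enolase Eno3, with -0.090, -0.076, -0.151 and -0.207 (mean adjusted p = 0.434). Pfkm and Pfkl, which also encode the enzyme that sets the pace of the pathway, had means of -0.037 and 0.025. Hexokinase 2 had ratios of 0.116, -0.055, 0.277 and 0.122, highest at 4 h as Hk1 was. Pyruvate kinase M, the brain enzyme that ends the pathway, had 2 spots and ratios of -0.058, 0.135, 0.036 and -0.027. The liver type, Pklr, had 0.690, 0.169, 0.067 and -0.541, with a slope of -0.217 per h (adjusted p = 0.113). The lowest value of the list at 4 h was that of Bpgm, the red cell enzyme that makes 2,3-bisphosphoglycerate, at -0.712.

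Glucose enters brain through Slc2a1 (GLUT1, in vessels and astrocytes) and Slc2a3 (GLUT3, in neurons), and lactate moves through Slc16a1, Slc16a3 and Slc16a7. Of 12 transporter genes, all tested, 0 passed, and 2 lay above and 1 below 0 at an unadjusted p below 0.05 (4.26% and 7.12% of all genes). Slc2a1 had log10 ratios of 0.166 (1 h), 0.315 (2 h), 0.186 (4 h) and 0.265 (6 h). All 4 lay above 0, with a mean of 0.233 (SE 0.053) over the 4 arrays and a limma adjusted p of 0.416. Slc2a3 had 2 spots that disagreed, at 0.120 and -0.225 at 2 h and at -0.247 and -1.31 at 6 h. Embigin, a partner that carries lactate transporters to the membrane, had -0.168, -0.337, -0.653 and -0.913 (slope -0.149 per h, adjusted p = 0.117), lower at each later time. Slc2a2 had 0.847, 0.108, 0.073 and 0.702. The lactate transporters had means of -0.078 for Slc16a1, -0.152 for Slc16a3 and -0.074 for Slc16a7, with adjusted p between 0.448 and 0.719. Slc16a8, of the same family, had a mean of 0.035 (limma adjusted p = 0.871).

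**Figure D5:**
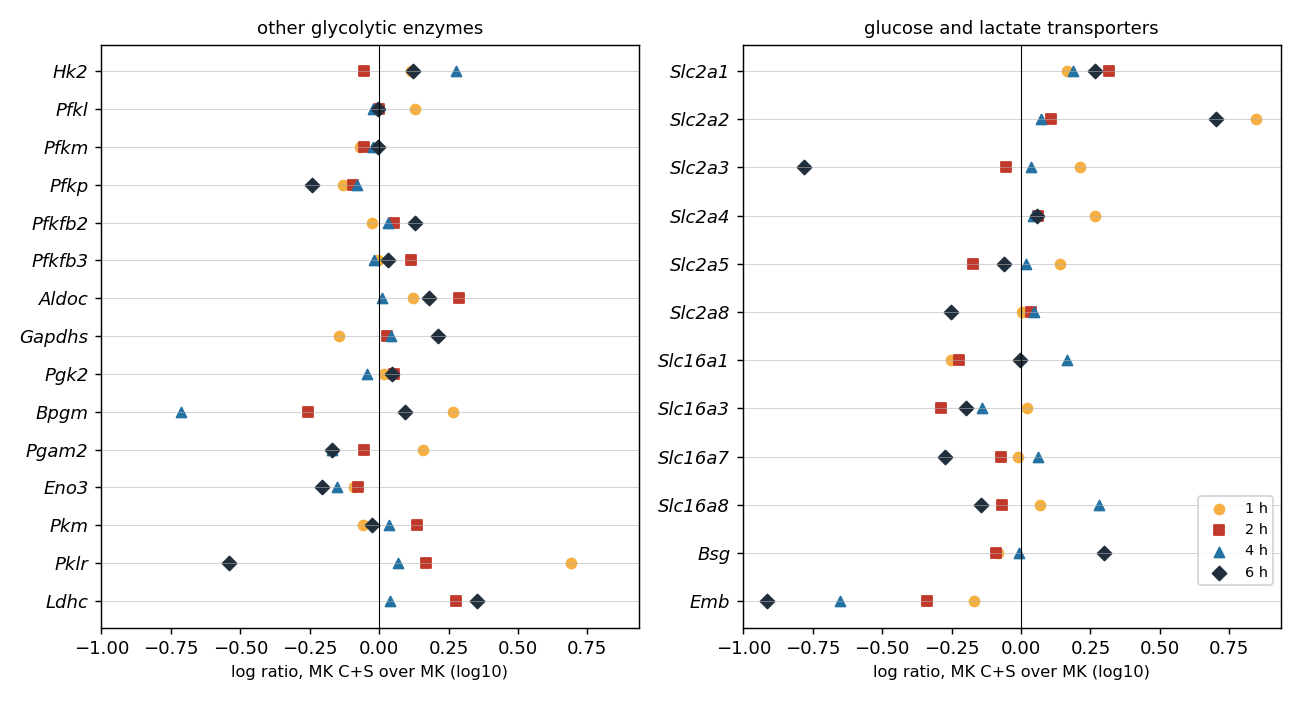
Log10 ratio (MK C+S over MK) of the other glycolytic enzymes and of the glucose and lactate transporters, 1 mark per array at 1, 2, 4 and 6 h. Most genes have marks on both sides of 0; Aldoc, Slc2a1, Slc2a2 and Slc2a4 have all 4 above it, Pfkm, Pfkp, Eno3 and Emb have all 4 below it, and Pklr runs between 0.690 and -0.541.

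Some markers of other cell types also had ratios away from 0. Choroid plexus markers had a median of 0.514 at 1 h, with 5 of 6 past 2-fold upward (5.12% of all genes) and a range between -0.235 and 0.711, and a median of -0.040 at 2 h. Ttr, the most abundant transcript of that epithelium, had no ratio at 1 h and had -0.665 at 2 h and -1.27 at 4 h. It stood apart from its list at 4 h, where the 7 choroid plexus markers had a median of -0.017 and a highest value of 0.203. Of these 7, only Ttr was past 2-fold at 4 h. Endothelial and mural markers had a median of -0.301 at 2 h, with 4 of 8 past 2-fold downward (4.14% of all genes) and 1, Pecam1, upward at 0.459, and a median of -0.147 for the mean over the times. Astrocyte markers, Aldoc among them, had medians of -0.0095, -0.014, 0.049 and 0.097 at 1, 2, 4 and 6 h, and neuron markers -0.042, 0.017, -0.113 and -0.093. The part of these cell types in the ratios of the glycolytic genes was not tested.

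Among 17 listed reference genes, Gapdh and Pgk1 included, 10 were tested and 0 passed. Actin beta, from the 1 of its 2 spots with a ratio, had 0.782 (1 h), -0.0086 (2 h), 0.119 (4 h) and -0.413 (6 h), a wider range than that of Hk1, Gapdh, Pgk1, Eno2, Ldha or Ldhb. Ywhaz had 0.551 at 6 h, the mean of spots at 0.235 and 0.866. Gusb had a mean of -0.296 (adjusted p = 0.416), and its 2 spots disagreed, with -1.02 and -0.063 at 4 h. Hprt, with values between -0.063 and 0.0029, had an SD over the times of 0.028, close to that of Ldha.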

How the data were processed

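RNA of 4 MK C+S and 4 MK samples was compared on 4 arrays with 2 dyes, grouped by time per the labels. The deposited values are log10 ratios as read here; base, direction, centring and scale are not stated, and the median of each deposited column was 0. No source used here gives the scanner, the background correction or the normalization. Arrays at different times had Pearson correlations between 0.016 and 0.373 across spots.

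Exact zeros (between 7.39% and 22.7% of spots) were taken as not measured and columns were centred on their measured medians (between -0.0054 and 0.0055). A platform annotation named 13738 spots with 1 gene, 52 with several and 2491 with none; Entrez identifiers of 13694 matched RefSeq (GRCm38.p6), which changed 0 symbols. Measured spots of a gene were averaged. Using limma 3.58.1 under R 4.3.3, with statmod 1.5.0 for array weights, the mean over times and the slope on hours were fitted (lmFit, eBayes; two-sided) and adjusted by Benjamini-Hochberg over 8553 genes at 0.05; the error is the spread between times, and the script was tested on simulated data. Single times have 1 array and no p-value, only a size of 2-fold. The number of arrays limits the precision.

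Members, lists and tests were chosen with earlier results of these data known. All members are named, all genes of the glycolytic and transporter lists may be, and other lists give up to 4 genes of largest absolute mean; Hprt, Ttr, Pecam1 and the low Gapdh spots were chosen after their values were seen. Nearest genes are the 3 of smallest root mean square difference. Alternatives covered spot summary, zeros, centring, scaling, neighbouring spots (a window of 51), array weights, filters, sizes, log base and each array left out.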

Additional observations from a re-analysis of the deposited data

Results flagged for a closer look

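The log10 ratios of 4 of the 6 glycolytic genes with a ratio on all 4 arrays lay above 0 at one time and below it at another. Only 21.8% of all genes with a value on every array kept 1 sign, so most genes changed sign as well. These are differences between single arrays in the same contrast (MK C+S over MK). The highest minus the lowest ratio over the 4 times was 0.407 for Ldhb, with 0.190 at 6 h against -0.217 at 4 h. It was 0.357 for Hk1, with 0.176 at 4 h against -0.180 at 1 h. For Gapdh, as the mean of its spots, it was 0.282, with 0.199 at 6 h against -0.083 at 1 h. By the median of its spots Gapdh was highest at 2 h, with 0.224 beside 0.198 at 6 h. All 14 spots measured at both 1 and 6 h were higher at 6 h. After the 50 nearest other spots were subtracted, 5 of the 14 were higher at 6 h, with a median difference of -0.031. For Pgk1 it was 0.168, with 0.042 at 2 h against -0.126 at 4 h. With 1 array a time the difference between 2 times was not tested, and in the slope on hours the limma adjusted p of these genes lay between 0.612 and 0.958.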

How the results depend on the processing

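Each ratio already pairs MK C+S with MK on 1 array. No further pairing was possible because the labels give no replicate numbers and each time has 1 array. Genes passing in the mean over times numbered 0, against 2 once a running median along the spot numbers was taken out, 2 with array weights and 1 with genes on at least 3 arrays, and 0 to 0 with each array left out. In the slope they numbered 0, against 0 to 399 with each array left out (399 without the 4 h array). None of the member genes passed under any of these. Genes past 2-fold numbered 776, 668, 729 and 2211 at 1, 2, 4 and 6 h. They numbered 2299, 2457, 2377 and 4029 at 1.5-fold, 226, 176, 178 and 1091 at 3-fold, and 76, 101, 75 and 375 among genes with at least 2 measured spots. Values read as log2 gave 22, 23, 23 and 93, of which 3, 0, 1 and 7 were positive, and natural logs gave 69, 59, 65 and 438, of which 30, 3, 8 and 177 were positive, where the log10 reading had 469, 248, 257 and 1028. Each spot on its own gave 1016 at 2 h, and moved the median over the glycolytic values at 2 h to 0.198 and that at 6 h, which is -0.0070 by gene, to 0.187, since Gapdh then counts by its spots.

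The mean of Ldhb turned to -0.0041 with arrays scaled and -0.038 with array weights. With each array left out, means ran between -0.048 and 0.088 for Ldhb (negative without the 1 h or the 6 h array), -0.045 and 0.011 for Pgk1 (positive without the 4 h array), -0.104 and 0.015 for Hk1 (positive without the 1 h array), and 0.0030 and 0.097 for Gapdh. Removing the running median turned the sign of 6 of 27 glycolytic values and subtracting the 50 nearest spots, an alternative chosen after seeing the data, that of 7 of 27, among them Gapdh at 1 h (0.032 and 0.039), Eno2 at 6 h (0.022 and 0.0036) and Ldha at 6 h (0.060 and 0.069). The cause was not tested. The median of a gene's spots turned 1 of 27 (Gapdh at 4 h), and zeros kept, columns not centred again and scaling turned 0 of 27.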

Other observations

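Downstream and beside glycolysis, 0 genes passed in any list. Of 6 tested genes that bring pyruvate into mitochondria, 5 had a mean below 0 (53.9% of all genes), with a median of -0.104, and 2 lay below at an unadjusted p below 0.05 (7.12% of all genes). These were Pdk2, a kinase that switches pyruvate dehydrogenase off, with log10 ratios of -0.026, -0.803, -0.241 and -0.193 at 1, 2, 4 and 6 h (limma adjusted p = 0.434), and Mpc1, a subunit of the mitochondrial pyruvate carrier, with -0.186, -0.127, -0.045 and -0.305 (adjusted p = 0.430). The 12 citric acid cycle genes had a median mean of -0.0072, and Aco1, the cytosolic aconitase, lay above 0 on all 4 arrays, with 0.043, 0.179, 0.191 and 0.136 (adjusted p = 0.432). The 2 Pdk2 spots disagreed, with -1.65 and 0.047 at 2 h and -0.591 and 0.205 at 6 h.

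In the glycogen and gluconeogenesis list, 2 of 13 lay below 0 at an unadjusted p below 0.05 (7.12% of all genes): the glycogen phosphorylase Pygl had a mean of -0.154 (adjusted p = 0.427) and Pgm2 a mean of -0.283 (adjusted p = 0.427). Fbp1, which runs a step of glycolysis backward, had 0.488, 0.283, 0.096 and -0.029 (slope -0.099 per h, adjusted p = 0.174), with 2 spots at -0.181 and 0.122 at 6 h. In the pentose phosphate list 1 of 10 lay above 0 at that level (4.26% of all genes), G6pd2, with 0.456, 0.267, 0.098 and 0.075 (mean adjusted p = 0.427). Among regulators and targets of Hif1 and Myc, with the same shares over all genes, 1 of 13 lay above, Ndrg1 with a mean of 0.146 (adjusted p = 0.427), and 1 below, Ddit4 with a mean of -0.149 (adjusted p = 0.434).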
